A study of Homo sapiens with 9 samples.

Results

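NIPAL3 and STPG1 are neighbouring genes on chromosome 1 that are transcribed in opposite directions and overlap at their starts, and they are 2 of the 49 genes whose read counts were analysed. They were taken by name and gene ID (NIPAL3, ENSG00000001461; STPG1, ENSG00000001460). The pair was chosen by its measured counts in the groups compared here, with earlier results of these data known, so its levels, fold changes and ratio are given as a description, with no p-value. Calls of the 2 genes in a fit across all genes are given only as counts beside the share of all genes called, and are no test of the pair. RNA sequencing was performed in HK-2, an immortalized line of human proximal tubular epithelial cells, in 9 libraries that form 3 groups of 3. The shJMJD1A-AGE cells carried a lentiviral short hairpin RNA against JMJD1A, a demethylase of histone H3 lysine 9 that is encoded by KDM3A, and were treated with advanced glycation end products (AGEs). The shCtrl-AGEs cells carried a control hairpin and received the same treatment. The shCtrl-Normal cells carried the control hairpin and are taken, by their name, as cells without AGEs. The protocol attached to the records of all 9 samples, the Normal ones included, gives 400 μg/ml AGEs for 72 h, so the absence of AGEs rests on the group's name alone. All groups thus share the cell line and a lentiviral hairpin, JMJD1A was silenced with 1 hairpin sequence and only in cells with AGEs, and no source states that the libraries are separate cultures, so the spread given here may be technical. KDM3A was not analysed here, nor was any of 14 markers of proximal tubule and HK-2 cells or of 10 markers of other kidney cells, so neither the silencing nor the cell type could be checked from these counts.

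NIPAL3 encodes a protein of the NIPA-like family, membrane proteins with many membrane-spanning segments. Its relatives NIPA1 and NIPA2 carry magnesium into cells, and the proximal tubule is one of the segments of the nephron that take magnesium back from the filtrate. STPG1 encodes a protein with the PG-rich repeats first described in sperm tails. It is also known as MAPO2, from work in mouse cells in which it took part in the apoptosis that follows O6-methylguanine damage to DNA. Genes that lie head to head, with their starts close together on opposite strands, are frequent in the human genome and can share a promoter region. Of 18 other genes of the NIPA family and of magnesium transport, 3 of the sperm-tail repeat family and 11 in the same chromosome band, 0 were among the genes analysed.

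In GENCODE release 44 on GRCh38, the assembly to which the reads had been mapped, NIPAL3 lies on the plus strand of chromosome 1 from 24415802 to 24472976, and STPG1 lies on the minus strand from 24356999 to 24416934. The gene spans overlap by 1133 bases. The overlap in exons is much smaller, 103 bases from 24415802 to 24415904, which are 1.10% of the 9396 exon bases of NIPAL3 and 1.21% of the 8511 exon bases of STPG1. None of these 103 bases is coding in either gene. On the STPG1 side they belong to 1 of its 12 annotated transcripts, STPG1-206, which has no coding sequence defined, and 0 of its 5 protein-coding transcripts start inside the span of NIPAL3. The canonical transcripts of the 2 genes start 2020 bases apart and do not overlap. On the NIPAL3 side, the shared bases belong to 6 of 7 transcripts, 4 of them coding. GRHL3, a neighbour whose span overlaps the far end of STPG1, shares 0 exon bases with it. Whether reads in the shared bases were given to one gene, to both or to neither depends on the strand and overlap settings of the counting, which are not given in the sources used here.

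**Figure D1:**
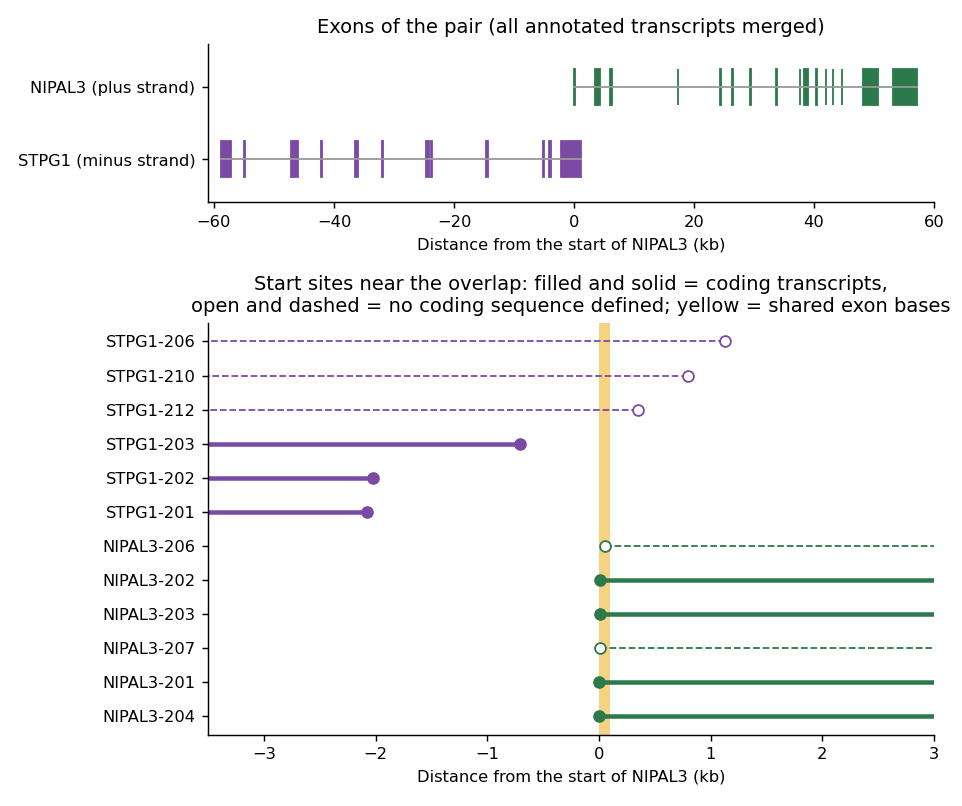
Layout of the pair, as distance in kb from the start of NIPAL3. The upper panel shows the merged exons of each gene (blocks) and the lower panel the start sites of single transcripts near the overlap, with the 103 shared exon bases in yellow; the coding transcripts of STPG1 all start to the left of NIPAL3, and only the transcripts with no coding sequence defined reach across it.

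RefSeq (GRCh38.p14) gives 3 start windows for NIPAL3 and 1 for STPG1, each of 300 bases with 250 before the start site. The 2 windows below are shown because they hold the first base of NIPAL3 in GENCODE and the RefSeq start of STPG1, with the bases after each start in capitals. The NIPAL3 window is chr1:24415552-24415851 on the plus strand and its start is that first base, so its 50 capital letters are also the first 50 of the shared exon bases. The STPG1 window is chr1:24414995-24415294 on the minus strand, with a start 758 bases to the left of that of NIPAL3. Of the other NIPAL3 starts in RefSeq, one lies 223 bases to the right of the start shown and one at 24413524, farther to the left than the STPG1 start at 24415044. That start also lies to the left of the canonical STPG1 start in GENCODE, at 24413782. The overlap and the distance between starts given above hold for the GENCODE spans, and from that RefSeq start the genes would overlap further.

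NIPAL3: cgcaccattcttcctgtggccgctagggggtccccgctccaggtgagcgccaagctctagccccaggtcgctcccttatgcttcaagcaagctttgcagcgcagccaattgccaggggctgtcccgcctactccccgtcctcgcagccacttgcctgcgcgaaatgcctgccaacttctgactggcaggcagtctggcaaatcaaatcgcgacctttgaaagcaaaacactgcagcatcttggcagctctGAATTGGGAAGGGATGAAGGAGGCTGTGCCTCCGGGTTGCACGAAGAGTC
STPG1: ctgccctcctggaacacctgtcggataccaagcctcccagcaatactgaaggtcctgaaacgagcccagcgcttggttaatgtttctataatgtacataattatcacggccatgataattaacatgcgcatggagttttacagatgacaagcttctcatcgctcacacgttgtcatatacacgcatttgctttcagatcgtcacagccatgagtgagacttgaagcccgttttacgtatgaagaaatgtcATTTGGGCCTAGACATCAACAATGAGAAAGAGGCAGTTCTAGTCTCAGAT

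The NIPAL3 window held 15 CpG dinucleotides and had a GC content of 59.7%, near the medians of 14 and 58.7% over 35116 RefSeq windows of the same length. The STPG1 window held 11 CpG dinucleotides and had a GC content of 44.7%. Of 4 short motifs searched on both strands, CCAAT occurred 2 times in the NIPAL3 window, once before the start and once, read on the opposite strand, just after it, and 0 times in the STPG1 window. It occurs in 34.6% of all windows. ACGTG occurred 1 time in the STPG1 window, as in 21.4% of all windows, and 0 times in that of NIPAL3. TATAAA and GGGCGG were in neither of the 2 windows shown, and are in 11.5% and 45.0% of all windows. The NIPAL3 window farthest to the left, not shown, held 17 CpG dinucleotides, a GC content of 65% and 1 GGGCGG. The motifs do not overlap each other in the windows shown. These are matches of letters and say nothing of which factors bind there.

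NIPAL3 was counted 1500, 1381 and 1698 times in the shJMJD1A-AGE libraries, 1015, 982 and 960 times in the shCtrl-AGEs libraries, and 662, 637 and 703 times in the shCtrl-Normal libraries. Its counts fell into 3 separate ranges, one per group, with no library of one group inside the range of another. After scaling by TMM, which corrects for the total and the composition of each library, NIPAL3 averaged 1701 ± 21.0 normalised read counts in shJMJD1A-AGE cells, 1018 ± 21.5 in shCtrl-AGEs cells and 589 ± 24.0 in shCtrl-Normal cells (SD, n = 3 each). The libraries of a group differed by little, with a coefficient of variation of 1.23% in shJMJD1A-AGE cells, 2.11% in shCtrl-AGEs cells and 4.07% in shCtrl-Normal cells. Counting error alone would give about 2.56%, 3.19% and 3.87% at these counts, in the same order of groups. In bulk RNA, a higher level per cell and more cells that express the gene cannot be told apart.

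STPG1 was counted 170, 178 and 256 times in the shJMJD1A-AGE libraries, 208, 198 and 172 times in the shCtrl-AGEs libraries, and 182, 149 and 168 times in the shCtrl-Normal libraries. The raw counts overlapped between all groups. The totals over the 49 genes were 67563 to 98250 in the libraries with AGEs and 99729 to 107036 in the shCtrl-Normal libraries. These totals are not library depths, so they cannot show whether the raw counts are on one scale. The normalised levels and fold changes rest on a scale set by these genes alone. As normalised read counts, the level was 223 ± 33.4 in shJMJD1A-AGE cells, 199 ± 14.8 in shCtrl-AGEs cells and 147 ± 12.6 in shCtrl-Normal cells (SD, n = 3 each). The 3 shCtrl-Normal libraries, at 134 to 159 normalised read counts, lay below all libraries with AGEs. The shJMJD1A-AGE libraries (190 to 257) and the shCtrl-AGEs libraries (182 to 210) overlapped, so these 2 neighbours in the order of levels did not differ beyond their spread. The widest spread was in shJMJD1A-AGE cells, with a coefficient of variation of 15% against 7.05% from counting error alone, and replicate 3 of that group had the highest STPG1 count of all libraries, 256 (95% exact Poisson interval 226 to 289, counting error only).

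Compared per kilobase of exon, NIPAL3 was the more abundant of the pair in every group. It had 181 ± 2.23, 108 ± 2.29 and 62.7 ± 2.55 normalised read counts per kilobase in shJMJD1A-AGE, shCtrl-AGEs and shCtrl-Normal cells, and STPG1 had 26.2 ± 3.93, 23.3 ± 1.74 and 17.2 ± 1.48 in the same groups (SD, n = 3 each). The mean of the ratios of these levels within each library was 7.01 in shJMJD1A-AGE cells, 4.66 in shCtrl-AGEs cells and 3.65 in shCtrl-Normal cells. Without the shared exon bases in the lengths it was 7.0, 4.65 and 3.65, and with the length of the longest transcript of each gene it was 8.49, 5.64 and 4.43. The longest STPG1 transcript, of 6016 bases, is STPG1-206, which has no coding sequence defined. The canonical transcripts have 5372 bases for NIPAL3 and 2726 bases for STPG1. The ratio was not computed with these lengths, and would be lower in every group. Its size thus depends on the length taken.

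**Figure D2:**
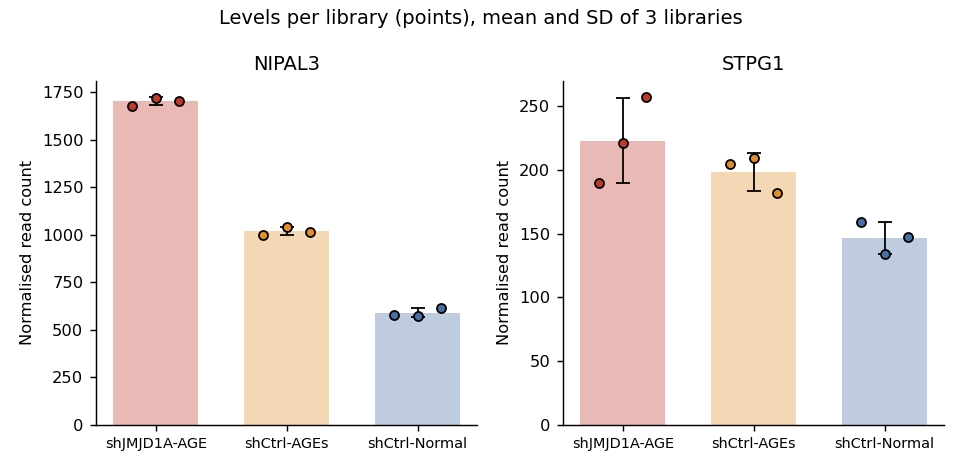
Normalised read counts (TMM over the 9 libraries) of NIPAL3 and STPG1 in each library (points), with the mean (bar) and SD (error bar) of the 3 libraries of a group. NIPAL3 lies near 1701 in shJMJD1A-AGE cells, 1018 in shCtrl-AGEs cells and 589 in shCtrl-Normal cells with no overlap, while STPG1 overlaps between shJMJD1A-AGE and shCtrl-AGEs cells.

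To describe the response to AGEs, shCtrl-AGEs cells were compared with shCtrl-Normal cells. Both genes were higher with AGEs, on the scale set by the genes analysed. The log2 fold change was 0.82 for NIPAL3 (standard error 0.0747), a 1.77-fold higher level, and 0.47 for STPG1 (standard error 0.144), a 1.39-fold higher level, beside a median of −0.0073 over all 46 genes tested. NIPAL3 had the highest log2 fold change of these genes, and ranked 1 or 2 in the 14 alternatives tried. STPG1 ranked 5. A gene was called where the quasi-likelihood test of edgeR gave an adjusted p (Benjamini-Hochberg, all genes tested) under 0.05. Both members were called higher, in a comparison in which 19.6% of the genes tested were, and the groups did not overlap for both, as for 21.7% of the genes in that direction. Since this contrast was known when the pair was chosen, nothing is read from these counts. STPG1 was not called without shCtrl-AGEs replicate 1 or replicate 2. Its log2 fold changes there, 0.46 and 0.43, stayed close to 0.47, while the standard errors were larger, at 0.186 and 0.183.

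To describe the effect of silencing in the presence of AGEs, shJMJD1A-AGE cells were compared with shCtrl-AGEs cells. NIPAL3 was higher again, with a log2 fold change of 0.71 (standard error 0.0665), or 1.64-fold. For STPG1 the value was 0.14 (standard error 0.140), or 1.10-fold, about as large as its standard error. The median over the 45 genes tested was 0.041. NIPAL3 was called higher and STPG1 was not, where 20.0% of the genes tested were called higher, and the groups did not overlap for NIPAL3, as for 24.4% of the genes. NIPAL3 ranked 4 from the highest log2 fold change and STPG1 ranked 19. The value of STPG1 moved with single libraries, to 0.018 without shJMJD1A-AGE replicate 3 and to 0.27 without shJMJD1A-AGE replicate 1. The scaling mattered here: with plain totals in place of TMM the median over all genes moved to 0.19, and the log2 fold changes of NIPAL3 and STPG1 to 0.86 and 0.29.

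Against shCtrl-Normal cells, shJMJD1A-AGE cells differed in both the hairpin and the treatment. The log2 fold change was 1.56 for NIPAL3 (standard error 0.0699), or 2.94-fold, and 0.63 for STPG1 (standard error 0.177), or 1.55-fold, beside a median of 0.061 over 45 genes. Both members were called higher, where 17.8% of the genes tested were, and the groups did not overlap for both, as for 20.0% of the genes. STPG1 was not called without shCtrl-Normal replicate 2 (0.57) or replicate 3 (0.67). The 3 comparisons share libraries, so their values are not independent of each other.

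**Figure D3:**
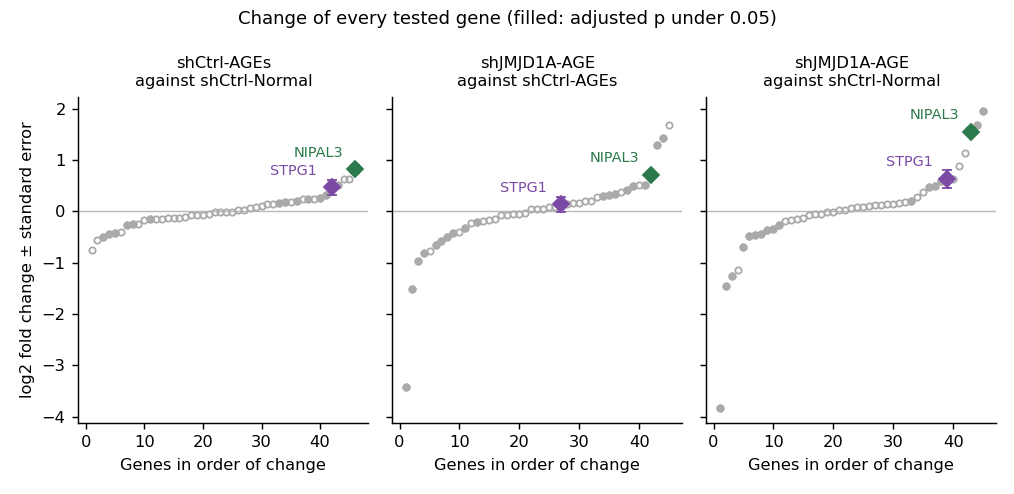
Log2 fold change of every tested gene in each comparison, in order of size (grey points, filled where the adjusted p was under 0.05), with NIPAL3 and STPG1 as diamonds with their standard errors. NIPAL3 stands at or near the top in each panel (0.82, 0.71 and 1.56), and STPG1 lies lower (0.47, 0.14 and 0.63).

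The ratio of NIPAL3 to STPG1 within a library needs no scaling between libraries. It was 8.82, 7.76 and 6.63 in the shJMJD1A-AGE libraries, 4.88, 4.96 and 5.58 in the shCtrl-AGEs libraries, and 3.64, 4.28 and 4.18 in the shCtrl-Normal libraries. The 3 groups did not overlap. With another tested gene in place of STPG1, the ratio was also higher with no overlap for 41 of 44 genes in shCtrl-AGEs against shCtrl-Normal cells. In shJMJD1A-AGE cells this held for 34 of 43 genes against shCtrl-AGEs and for 38 of 43 against shCtrl-Normal cells. The separation is thus not particular to STPG1 as the denominator. As a share of the counts of the pair, NIPAL3 took 88.4% ± 1.47 in shJMJD1A-AGE cells, 83.7% ± 0.988 in shCtrl-AGEs cells and 80.1% ± 1.42 in shCtrl-Normal cells (SD, n = 3 each). The shares rest on 786 to 1954 counts per library. The exact 95% binomial interval (Clopper-Pearson, counting error only) of the lowest shJMJD1A-AGE share, 86.9%, was 85.3% to 88.4%, and that of the highest shCtrl-AGEs share, 84.8%, was 82.6% to 86.8%, so these nearest libraries of the 2 groups were not apart beyond counting error. The intervals of the lowest shCtrl-AGEs share (83.0%, 80.8% to 85.1%) and the highest shCtrl-Normal share (81.0%, 78.1% to 83.7%) overlapped as well.

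The mean log2 ratio was 2.94 ± 0.206 in shJMJD1A-AGE cells, 2.36 ± 0.106 in shCtrl-AGEs cells and 2.01 ± 0.127 in shCtrl-Normal cells (SD, n = 3 each). Counting error alone would give SDs of about 0.109, 0.114 and 0.125. The spread in shJMJD1A-AGE cells was thus wider than counting error, with replicate 3, the library with the highest STPG1 count, at the low end. The difference of the mean log2 ratios was 0.35 for shCtrl-AGEs against shCtrl-Normal (standard error 0.0952), 0.58 for shJMJD1A-AGE against shCtrl-AGEs (standard error 0.134) and 0.93 for shJMJD1A-AGE against shCtrl-Normal (standard error 0.140). These are 1.28-fold, 1.5-fold and 1.91-fold higher ratios. Leaving out each library in turn gave 0.28 to 0.40 for the first comparison, 0.48 to 0.69 for the second and 0.83 to 1.04 for the third.

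**Figure D4:**
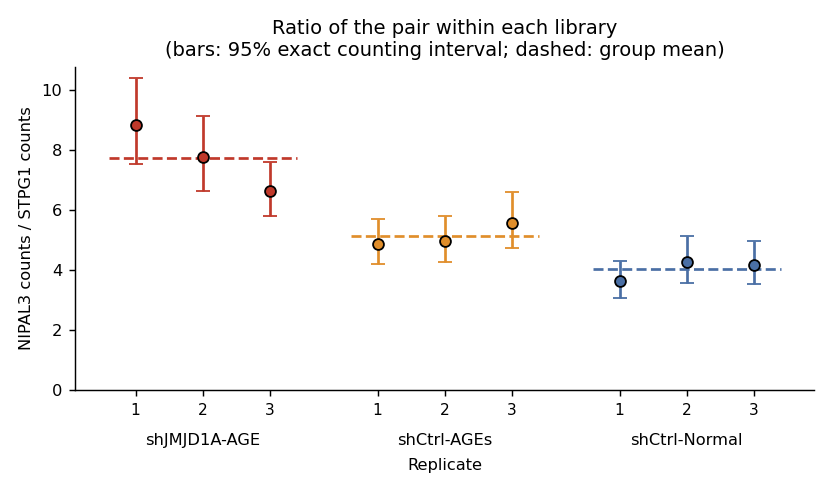
Ratio of NIPAL3 to STPG1 counts in each library, with the exact 95% counting interval (bars) and the group mean (dashed lines). The shJMJD1A-AGE libraries sit between 6.63 and 8.82, above the shCtrl-AGEs libraries (4.88 to 5.58), which sit above the shCtrl-Normal libraries (3.64 to 4.28).

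The same kind of ratio was taken between each member and the other tested genes, which also needs no scaling. In shCtrl-AGEs against shCtrl-Normal cells, the mean log2 ratio of NIPAL3 to the other gene was higher for 44 of 44 genes, and the groups did not overlap for 41 of them. For STPG1 these counts were 41 and 32 of 44. In shJMJD1A-AGE against shCtrl-AGEs cells, the ratio was higher for 40 of 43 genes with NIPAL3, with no overlap in 34, and for 27 of 43 genes with STPG1, with no overlap in 11. In shJMJD1A-AGE against shCtrl-Normal cells it was higher for 41 of 43 genes with NIPAL3, with no overlap in 38, and for 38 of 43 with STPG1, with no overlap in 29. These counts share 1 numerator gene each and are a description. They were not taken with other genes as the numerator, so no background is given for them. A gene that ranks high by log2 fold change will also give high counts here.

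Among 44 other genes, those whose levels followed the members most closely over the 9 libraries were named by the correlation of log2 normalised counts, a description over libraries that fall into 3 groups. M6PR, the cation-dependent receptor that carries lysosomal enzymes by their mannose 6-phosphate, was the closest to NIPAL3 (Pearson r = 0.95) and to STPG1 (r = 0.87). It averaged 7161 ± 310 normalised read counts in shJMJD1A-AGE cells, 5657 ± 244 in shCtrl-AGEs cells and 4838 ± 451 in shCtrl-Normal cells (SD, n = 3 each). The next closest to NIPAL3 were GCLC, the catalytic subunit of the first enzyme of glutathione synthesis (r = 0.90), and SLC7A2, a transporter of cationic amino acids (r = 0.89). After M6PR, the closest to STPG1 were SLC7A2 (r = 0.75) and CYP26B1, an enzyme that degrades retinoic acid (r = 0.69). Between NIPAL3 and STPG1 themselves r was 0.87. SLC7A2 had another course than NIPAL3 across the groups, with 846 ± 97.6 normalised read counts in shJMJD1A-AGE cells, 306 ± 28.6 in shCtrl-AGEs cells and 267 ± 41.9 in shCtrl-Normal cells (SD, n = 3 each).

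Of a list of 9 genes of O6-methylguanine repair and apoptosis, set beside STPG1 for its second name, 3 were among the genes analysed, all of them general regulators of apoptosis. CFLAR, which blocks caspase activation by death receptors, was the 1 gene called higher with AGEs (log2 fold change 0.51, standard error 0.0710), and 0 were called lower, beside 9 higher and 6 lower of the 46 genes tested. CASP10, an initiator caspase at death receptors, was the 1 gene called higher in shJMJD1A-AGE against shCtrl-AGEs cells (0.53, standard error 0.111), and 0 were called lower, beside 9 higher and 10 lower of the 45 genes tested. CFLAR had a log2 fold change of −0.39 there (standard error 0.146), with an adjusted p of 0.0547 from edgeR, and was not called. BAD, a member of the BCL2 family that promotes cell death, was called in neither, at 0.11 and −0.17. In shJMJD1A-AGE against shCtrl-Normal cells CASP10 was the 1 gene called higher (0.50, standard error 0.116) and 0 were called lower, beside 8 higher and 10 lower of the 45 genes tested, and the median of the 3 was 0.14 beside 0.061 over all genes tested. The median of the 3 was 0.11 in the first comparison and −0.17 in the second, beside −0.0073 and 0.041 over all genes tested.

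Other neighbours within 10000 bases of each other among the genes analysed formed 4 pairs. ANKIB1 and KRIT1 also lie head to head, and share 193 exon bases. SARM1 and POLDIP2 lie head to head as well, with 6828 bases between them and 0 exon bases shared. ANKIB1 encodes an ankyrin repeat protein of a ubiquitin ligase family and KRIT1 a scaffold protein of endothelial junctions. The ratio of ANKIB1 to KRIT1 counts was 10.2 ± 4.59 in shJMJD1A-AGE cells, 11.8 ± 1.44 in shCtrl-AGEs cells and 10.9 ± 0.0947 in shCtrl-Normal cells (SD, n = 3 each). The groups overlapped in all 3 comparisons, with differences of the log2 ratio of 0.11 for shCtrl-AGEs against shCtrl-Normal (standard error 0.104), −0.30 for shJMJD1A-AGE against shCtrl-AGEs (standard error 0.376) and −0.19 for shJMJD1A-AGE against shCtrl-Normal (standard error 0.361). For CASP10 and CFLAR the differences were −0.57, 0.93 and 0.37 in the same order, with no overlap of the groups in any comparison. For SARM1 and POLDIP2 the groups did not overlap in shJMJD1A-AGE against shCtrl-AGEs cells alone (−0.33). For SCYL3 and C1orf112 they overlapped in all 3 comparisons. Whether the ratio of NIPAL3 to STPG1 moved differently from those of the other pairs was not tested.

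**Figure D5:**
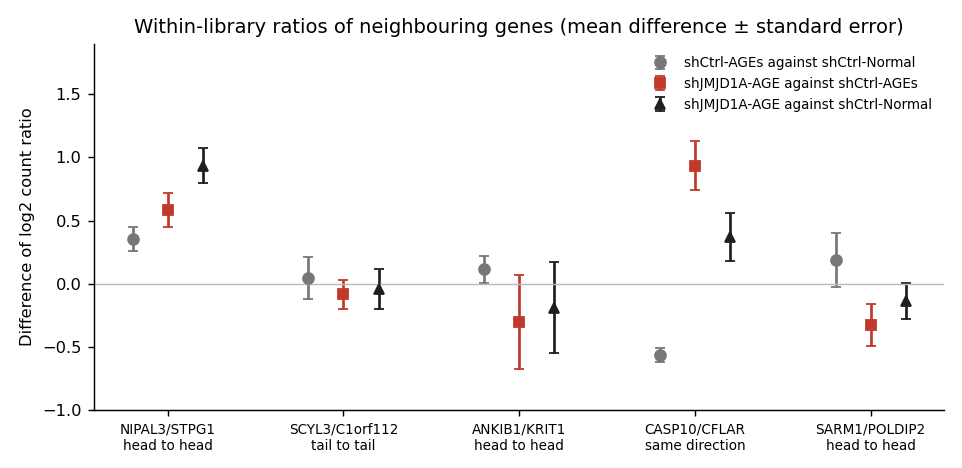
Difference between groups of the log2 count ratio of neighbouring genes (points, with standard errors of the difference of 2 means of 3 libraries), for 5 pairs and 3 comparisons. NIPAL3/STPG1 lies above 0 in all 3 comparisons (0.35, 0.58 and 0.93), while ANKIB1/KRIT1 lies within about 1 standard error of 0. CASP10/CFLAR also lies away from 0, at −0.57, 0.93 and 0.37 in the same order, with no overlap of the groups in any comparison. SARM1/POLDIP2, also head to head, lies at 0.19, −0.33 and −0.14, with no overlap of the groups in the second comparison alone.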

How the data were processed

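RNA from 9 libraries of HK-2 cells was sequenced. Per the labels and the paper, the authors used Trim Galore for trimming, with FastQC and MultiQC for quality control, then HISAT2 2.1.0 for alignment to GRCh38 and featureCounts for counts per gene; the strand setting and the annotation release are not given in the sources used here. The library kit named (NEBNext Ultra RNA) comes with no strand-specific step in that text. The deposited values are raw counts, used as they were.

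Groups were taken from the sample titles. The counts cover 49 genes and sum to 67563 to 107036 per library, which are not library depths. No replicate pair had identical counts. In R 4.3.3, edgeR 4.0.16 compared pairs of groups: filterByExpr (minimum count 10, minimum total 15), TMM, robust quasi-likelihood fit and F test, Benjamini-Hochberg adjustment over all genes tested; the standard error is |log2 fold change| over √F. The fit was also run on simulated counts with the same dispersion for every gene and equal numbers of genes raised and lowered. That setting is simpler than these data, and no result given here rests on it. Alternatives were a joint fit of all groups, the replicate number as a block, plain totals, DESeq2 size factors, TMM without the pair, DESeq2 1.42.0, no filter, a mean count of at least 50, and leaving out each library. Likeness used log2 values with 1 added. Members, lists and the rule for named genes (the pair, the 3 genes most like each member, neighbours within 10000 bases, measured genes of 4 lists) were chosen with earlier results of these data known. Sequences are from RefSeq (GRCh38.p14), and both members matched by symbol.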

Additional observations from a re-analysis of the deposited data

How the results depend on the processing

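The differences of the ratio kept their direction, and stayed within 1 SD of the value given, in all alternatives tried. NIPAL3 was called higher in every alternative and comparison. Its log2 fold change moved by more than the small spread between libraries in some of them. For shJMJD1A-AGE against shCtrl-AGEs it was 0.74 with all 3 groups in one fit, 0.74 with DESeq2 size factors, 0.86 with plain totals, 0.77 with TMM without the pair, 0.74 with DESeq2's Wald test, 0.78 with no filter, 0.75 with a mean count of at least 50, and 0.71 to 0.75 on leaving out each library. With plain totals it was 0.76 for shCtrl-AGEs against shCtrl-Normal and 1.62 for shJMJD1A-AGE against shCtrl-Normal; leaving out each library gave 0.80 to 0.87 and 1.54 to 1.62. STPG1 kept its direction, and leaving out each library gave 0.42 to 0.52, 0.018 to 0.27 and 0.52 to 0.77 for shCtrl-AGEs against shCtrl-Normal, shJMJD1A-AGE against shCtrl-AGEs and shJMJD1A-AGE against shCtrl-Normal. Plain totals shifted the split of all genes called, to 6 higher of 17 against 9 higher of 15 for shCtrl-AGEs against shCtrl-Normal, and to 13 higher of 21 against 9 higher of 19 for shJMJD1A-AGE against shCtrl-AGEs. Other alternatives shifted it too. For shCtrl-AGEs against shCtrl-Normal it was 5 higher of 11 with all 3 groups in one fit. Without shCtrl-Normal replicate 3 it was 11 higher of 19. The shares of genes called that are set beside the pair hold for the main fit alone.

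Same-numbered libraries of different groups showed no steady tendency to deviate together. Their correlations were −0.43 to 0.31, over 0.1 in 4 of 9 pairs, and 3 of 9 libraries correlated best with their own number. With 3 libraries per group, this check is too small to tell whether the numbers pair the samples. With the replicate block the log2 fold changes of NIPAL3 were 0.83, 0.71 and 1.56 and those of STPG1 0.47, 0.13 and 0.62, and no call of either gene changed. The counts of STPG1, 149 to 256 per library, limit the precision of the ratio.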

Other observations

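The other neighbouring pairs among the genes analysed had these count ratios. CASP10 and CFLAR, regulators of apoptosis that lie 6184 bases apart in the same direction, had a ratio of 0.189 ± 0.0450 in shJMJD1A-AGE cells, 0.0972 ± 0.00554 in shCtrl-AGEs cells and 0.144 ± 0.00396 in shCtrl-Normal cells (SD, n = 3 each). Its log2 value was thus lower in shCtrl-AGEs than in shCtrl-Normal cells (−0.57, standard error 0.0535) and higher in shJMJD1A-AGE than in shCtrl-AGEs cells (0.93, standard error 0.195), with no overlap of the groups in either comparison. In shJMJD1A-AGE against shCtrl-Normal cells it was higher as well (0.37, standard error 0.191), also with no overlap. SCYL3 and C1orf112 lie tail to tail and share 1297 exon bases. Their ratio was 0.659 ± 0.0579, 0.70 ± 0.0748 and 0.683 ± 0.118 in shJMJD1A-AGE, shCtrl-AGEs and shCtrl-Normal cells (SD, n = 3 each), with overlap of the groups in all 3 comparisons. SARM1 and POLDIP2, head to head with 6828 bases between them, had ratios of 0.0478 ± 0.00237, 0.0607 ± 0.0121 and 0.0531 ± 0.00893 in the same groups (SD, n = 3 each). The log2 ratio was lower in shJMJD1A-AGE than in shCtrl-AGEs cells (−0.33, standard error 0.168), with no overlap of the groups. The groups overlapped in shCtrl-AGEs against shCtrl-Normal cells (0.19, standard error 0.211) and in shJMJD1A-AGE against shCtrl-Normal cells (−0.14, standard error 0.141).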
